A study of Mus musculus with 25 samples.

Results

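The protein tyrosine phosphatases of lymphocytes were followed through chromatin accessibility in fetus- and graft-specific CD8+ T cells (T_FGS), by ATAC-seq, in which a transposase cuts and tags open DNA. The 9 genes were Ptpn13, Ptpn1, Ptpn2, Ptpn6, Ptpn7, Ptpn11, Ptpn22, Ptprc and Ptprj. A peak was taken as a member where its midpoint had 1 of these genes as the nearest protein-coding transcription start site (TSS) or lay inside its gene body. This gave 34 of the 13527 peaks of the count table, 32 of them by the nearest start and 20 inside a gene body. Ptprc had 11 peaks, Ptpn13 7, Ptpn22 6, Ptpn1 3, Ptpn6 and Ptprj 2 each, and Ptpn2, Ptpn7 and Ptpn11 1 each. Ptpn13 itself was chosen on the measurements, because an intron peak of it had the strongest opening in 2 sorted subsets of sensitized post-partum mice (S+P C5 and S+P C7) against N+P C5. Its 7 peaks are therefore described without a test in every comparison that uses S+P C5, S+P C7 or N+P C5. The other 8 genes were added by function.

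The 25 libraries came from spleen and lymph node CD8+ T cells of young adult C57BL/6 female mice. Naive mice (n = 3) had neither graft nor pregnancy, and Sensitized mice (n = 4) had rejected an allogeneic skin graft from 2W-OVA.BALB/c donors. Naive+Pregnancy (N+P) mice carried a semi-allogeneic pregnancy by 2W-OVA.BALB/c males, and Sensitized+Pregnancy (S+P) mice had the graft and then the pregnancy. Post-partum cells were sorted into PD1- cells (N+P C1, n = 3, and S+P C4, n = 4), PD1+CD73+ cells (N+P C5, n = 3, and S+P C5, n = 4) and PD1+CD73- cells (S+P C7, n = 4). Since C1 was sorted from N+P mice alone and C4 and C7 from S+P mice alone, these 3 are given below by their number. The sorted subsets of 1 mouse share its replicate number. Across other groups the number marks no shared mouse. The cells were those that bind a tetramer of an OVA peptide, so they stand for T cells with 1 specificity, and PD1 and CD73 separate the post-partum subsets by construction. Total counts in peaks ran from 2430890 to 25419715, with a median of 8197552.

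Protein tyrosine phosphatases remove phosphate from tyrosines and so set how strongly a T cell responds to its antigen receptor and to cytokines. Ptprc encodes CD45, the abundant receptor phosphatase that both primes and restrains the kinase Lck, and Ptprj encodes CD148, another receptor phosphatase. Ptpn22 (LYP or PEP) and Ptpn6 (SHP-1) dampen antigen receptor signalling, Ptpn11 encodes SHP-2, which is recruited to the phosphorylated tail of PD-1, and Ptpn1 and Ptpn2 act on JAK kinases and STAT proteins. Ptpn7 (HePTP) acts on MAP kinases, and Ptpn13 encodes a large scaffold phosphatase with several PDZ domains.

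Of 5 CD8 T cell markers, 4 (Cd3e, Cd3d, Cd8a and Cd8b1) had a promoter peak, with summed normalised counts between 2089 and 3101 over all libraries. None of the 4 B cell, 4 myeloid, 2 NK cell or 2 erythroid markers had one. Of 3 CD4 T cell markers, Foxp3 alone had a peak within 1000 bp of a start, at 643 to 885, above the Cd8a peak in every group mean, and Cd4 and Zbtb7b had none. Only promoter peaks were looked at. Some libraries stand apart from their group: Sensitized replicates 3 and 4 lay below replicates 1 and 2 at most of the phosphatase peaks that opened, Naive replicate 3 was often the lowest of its group there, and C4 replicate 1 was the shallowest library. Each count below was also taken without these 4 libraries, which keeps replicates 1 and 2 alone in Naive and in Sensitized. The Naive and Sensitized libraries among them were singled out at these same peaks, so counts without them are descriptions. Their part in the results was not tested. In sorted bulk cells a larger share of cells with an open region and a more open region in each cell cannot be told apart.

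The sequences of 5 regions carry what follows, and the central 300 bases of each peak are shown on the + strand of GRCm39. The first 4 belong to the peaks with the highest fold changes in S+P C5 over N+P C5, and the last to a peak far beyond the 3′ end of Ptprc that closed. Capitals mark strings looked for on both strands, which were AP-1 TGANTCA, NFAT TTTCCA, ETS CCGGAA, RUNX TGTGGT, TCF/LEF CTTTGA and T-box AGGTGTGA.
Ptpn13 intron, 17201 bp from the start, chr5:103590095-103590394: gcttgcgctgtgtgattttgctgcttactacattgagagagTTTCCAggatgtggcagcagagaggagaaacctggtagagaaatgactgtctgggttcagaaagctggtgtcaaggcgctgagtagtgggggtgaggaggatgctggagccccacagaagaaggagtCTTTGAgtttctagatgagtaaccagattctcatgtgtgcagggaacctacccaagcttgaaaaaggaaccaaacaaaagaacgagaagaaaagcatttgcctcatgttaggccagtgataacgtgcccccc
Ptpn13 intron, 14183 bp from the start, chr5:103587077-103587376: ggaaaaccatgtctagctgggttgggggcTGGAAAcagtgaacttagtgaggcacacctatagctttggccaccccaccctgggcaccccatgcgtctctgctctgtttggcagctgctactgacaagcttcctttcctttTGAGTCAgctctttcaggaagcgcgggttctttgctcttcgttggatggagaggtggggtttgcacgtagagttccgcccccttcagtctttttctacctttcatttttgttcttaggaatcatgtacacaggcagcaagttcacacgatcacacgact
Ptpn11 intron, 11787 bp from the start, chr5:121317560-121317859: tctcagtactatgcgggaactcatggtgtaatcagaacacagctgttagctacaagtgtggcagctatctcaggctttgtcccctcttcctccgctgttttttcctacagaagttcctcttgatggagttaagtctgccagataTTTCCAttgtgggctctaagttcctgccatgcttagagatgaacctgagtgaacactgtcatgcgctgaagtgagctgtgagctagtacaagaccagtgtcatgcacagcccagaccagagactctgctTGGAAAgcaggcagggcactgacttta
Ptpn22 intron, 47998 bp from the start (the nearest coding start is that of Rsbn1), chr3:103814911-103815210: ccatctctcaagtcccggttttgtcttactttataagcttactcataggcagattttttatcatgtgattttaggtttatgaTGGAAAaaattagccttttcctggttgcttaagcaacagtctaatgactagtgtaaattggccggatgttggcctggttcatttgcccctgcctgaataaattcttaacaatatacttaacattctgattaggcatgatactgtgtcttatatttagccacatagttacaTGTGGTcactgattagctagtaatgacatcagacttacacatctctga
Ptprc, 276933 bp downstream of the start, chr1:137826364-137826663: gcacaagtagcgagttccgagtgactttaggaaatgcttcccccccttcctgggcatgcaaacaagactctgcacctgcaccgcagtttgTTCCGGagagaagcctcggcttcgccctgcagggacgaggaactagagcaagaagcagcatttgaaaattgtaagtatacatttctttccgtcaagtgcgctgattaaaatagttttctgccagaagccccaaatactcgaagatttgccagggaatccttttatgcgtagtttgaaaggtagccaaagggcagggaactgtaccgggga

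The NFAT string was in all 4 opening regions shown, with 2 matches in the Ptpn11 region. Other peaks also opened past the thresholds in S+P C5 over N+P C5. Of these, Ptprc -10398 bp and Ptpn6 +15270 bp held the string. The Ptpn13 peaks at -59463, -20472 and +73 bp, the Ptpn22 peaks at -7937 and +13115 bp and both Ptprj peaks did not. In the Ptpn13 +17201 bp region it spans bases 42 to 47 and a TCF/LEF string spans bases 169 to 174. The Ptpn13 +14183 bp region holds an AP-1 string at bases 142 to 148, and the Ptpn22 region a RUNX string at bases 253 to 258. The Ptprc region holds an ETS string and no NFAT string. These are matches of letters, not shown to be binding sites. Over the same central 300 bases, 25.4% of the 5857 non-promoter peaks held the NFAT string, 15.8% the AP-1 string and 25.5% the TCF/LEF string, with 40.6% for RUNX, 9.08% for ETS and 3.02% for T-box. Of the 34 phosphatase peaks, 10 held the NFAT string, 3 the AP-1 string, 10 the RUNX string, 11 the TCF/LEF string, 2 the ETS string and 1 the T-box string. Over all 13527 peaks the shares were 18.1%, 9.16%, 24.4%, 16.2%, 20.4% and 1.69% in that order. The median GC content of the 27 non-promoter phosphatase peaks was 48.67%, the same as over all non-promoter peaks.

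Of the 34 peaks, 7 lay within 1000 bp of a coding transcript start, 15 in introns and 12 between genes. A peak entered the table by being listed as reproducible in at least 1 group, and this matters for what follows. The S+P C5 list held 31 of the 34 phosphatase peaks, where it held 82.9% of all 13527 peaks, and the C7 list 19 (64.0% of all peaks). Sensitized held 18 (71.1%), Naive 14 (62.6%), C1 12 (62.9%), N+P C5 10 (62.2%) and C4 8 (27.0%). Only 6 of the 34 were in all 7 lists, against 24.0% of all peaks. The S+P C5 list alone held 10 of them, among all peaks 1363 (10.1%), and 7 of the 10 passed the thresholds below. Such a peak was in the table only through the S+P C5 list. That list did not always mark a high level. The Ptprc promoter, held by it alone, had a mean of 287 in S+P C5 and 372 in Naive. In the same way 19 phosphatase peaks were in no Naive or N+P list (27.0% of all peaks), and 2, the remote Ptprc peaks, were in lists of those groups alone (7.38%).

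The choice of peaks therefore fixed part of the outcome. A peak listed in S+P groups alone, as were 14 of the 34 (17.2% of all peaks), has no test in any comparison with S+P cells, since the sorted subsets of a mouse deviated together. The same holds for a peak listed in 1 other group of mice alone. A peak listed only in sensitized or only in unsensitized mice has no test between these backgrounds. Its fold changes there are given with their SE as a description. Counts that hold such peaks are descriptions too, and nothing is read from them against the share of all peaks.

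A peak passed the thresholds, and was called where a test is given, if the DESeq2 Wald test gave an adjusted p under 0.1 (Benjamini-Hochberg over all peaks) and the log2 fold change was beyond 0.9 in either direction. Over 13 group comparisons and 1 interaction, 18 of the 34 peaks passed at least once, of 7 genes, where 3480 of all 13527 peaks did (25.7%). One of the 7 phosphatase promoters and 17 of the 27 other peaks were among them, where 6.91% of all promoter peaks and 50.4% of all other peaks passed. The single peaks of Ptpn2 and Ptpn7 passed in none. In comparisons that have a test, 3 of the 34 peaks were called, where 12.7% of all peaks were under the same listing rule. They were the 2 remote Ptprc peaks and the Ptprj intron peak. The map of fold changes shows every peak in every comparison.

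**Figure D1:**
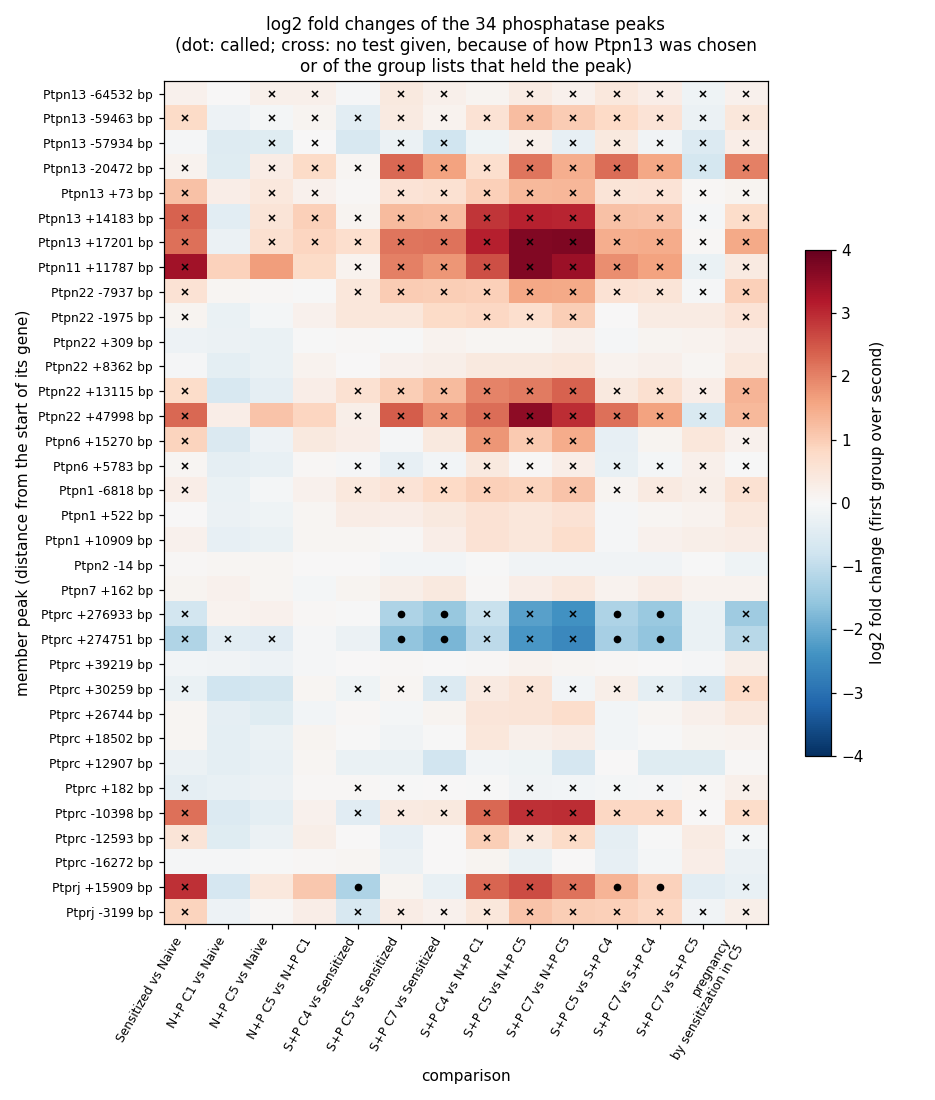
Rows are the 34 phosphatase peaks, named by gene and distance from its start, columns are the 14 comparisons, and colour is the log2 fold change of the first group over the second. A dot marks a called value, and a cross a value given without a test because of how Ptpn13 was chosen or of the group lists that held the peak. The strongest reds are in Ptpn13, Ptpn11 and Ptpn22 introns, and the 2 remote Ptprc peaks are the blue rows.

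The Ptpn13 gene body spans chr5:103573043-103747066 on the + strand. Its intron peak 17201 bp inside the gene (chr5:103590017-103590472) is the one on which the gene was chosen, and its level in each library is given as a description. The normalised counts were 15.2, 22.6 and 19.6 in Naive, 15.5, 23.6 and 7.54 in C1 and 30.2, 24.7 and 34.9 in N+P C5. In Sensitized they were 92.3, 100.4, 66.5 and 96.5, and in C4 105, 148, 163 and 145. In S+P C5 they were 401, 517, 297 and 353, and in C7 441, 497, 356 and 314. Raw counts were 11 to 31 in the Naive libraries and 4 to 21 in C1, so the low end rests on few reads.

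In order of the group means, C1 (15.5 ± 8.01, SD) and Naive (19.1 ± 3.75) overlapped, N+P C5 (29.9 ± 5.11) lay just above Naive, and Sensitized (88.9 ± 15.3) lay clear of all 3. C4 (140.3 ± 24.5) stood next, its lowest library only slightly above the highest Sensitized one. S+P C5 (392 ± 93.8) and C7 (402 ± 82.5) overlapped at the top and were clear of C4. On the log2 scale and without a test, Sensitized over Naive was 2.20 ± 0.29 (SE) and C4 over C1 was 3.12 ± 0.33. C4 over Sensitized was 0.68 ± 0.22, under the fold threshold. The differences were 3.70 ± 0.27 for S+P C5 and 3.74 ± 0.27 for C7 over N+P C5, 2.14 ± 0.21 and 2.18 ± 0.21 over Sensitized, and 1.46 ± 0.22 and 1.49 ± 0.22 over C4. C7 over S+P C5 was 0.038 ± 0.21.

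The second intron peak, 14183 bp inside the gene (chr5:103586857-103587596), ran alongside it. Naive libraries had 46.8, 35.4 and 17.7, C1 25.4, 22.4 and 22.6 and N+P C5 39.2, 54.8 and 44.5. Sensitized libraries had 197, 209, 104 and 137, with replicates 3 and 4 below the other 2, and C4 143, 164, 201 and 178. S+P C5 had 383, 461, 323 and 400.0 and C7 441, 393, 338 and 344, above every library of the other 5 groups. Without a test, Sensitized over Naive was 2.35 ± 0.28 and C4 over C1 2.87 ± 0.31. The differences from Sensitized were 1.27 ± 0.22 for S+P C5 and 1.23 ± 0.22 for C7, and those from C4 of the same mice were 1.18 ± 0.23 and 1.13 ± 0.23. Against N+P C5 they were 3.09 ± 0.27 and 3.05 ± 0.27. C4 over Sensitized was 0.10 ± 0.23.

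The Ptpn13 promoter peak (73 bp from the start, chr5:103572452-103573780) differed in the same direction by less and was the 1 phosphatase promoter that passed the thresholds. Its means were 219 ± 7.3 in Naive, 261 ± 33.8 in C1, 295 ± 37.9 in N+P C5, 492 ± 91.9 in Sensitized, 503 ± 117 in C4, 723 ± 48.6 in S+P C5 and 751 ± 95.1 in C7. All 4 Sensitized libraries (542, 585, 376 and 465) exceeded all 3 Naive ones (223, 222 and 210.1), a difference of 1.17 ± 0.17 with no test. C4 over C1 was 0.96 ± 0.17, which lay below the fold threshold with the replicate number as a block (0.89), without C4 replicate 3 (0.85) and without C1 replicate 3 (0.87). Over Sensitized, S+P C5 and C7 differed by 0.56 ± 0.15 and 0.61 ± 0.15, under the fold threshold.

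A peak 20472 bp upstream of the start (chr5:103552333-103552809) had another pattern. Naive libraries had 44.1, 39.3 and 40.4, Sensitized 28.3, 45.5, 64.8 and 41.2 and C4 91.9, 45.4, 35.4 and 26.6, which overlap. S+P C5 had 215, 289, 194 and 187, above every other group but C7, and C7 was spread over 151, 254, 94.4 and 49.6. The peak was listed in S+P C5 alone, and with no test S+P C5 differed from Sensitized by 2.30 ± 0.39 and from C4 by 2.23 ± 0.40. C7 over Sensitized was 1.60 ± 0.40, and 1 C7 library lay within the Sensitized range. Sensitized over Naive was 0.13 ± 0.44 and C4 over C1 0.67 ± 0.47, and with loess offsets, a normalisation described below, they were -1.68 and -1.96, both lower and past the fold threshold.

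The other 3 Ptpn13 peaks lay 57934 to 64532 bp upstream. Without a test, the -59463 bp peak differed by 1.23 ± 0.28 in S+P C5 and 1.01 ± 0.28 in C7 over N+P C5, and by 0.78 ± 0.28 in Sensitized over Naive. Its C7 value fell under the fold threshold with loess offsets (0.67) and without C7 replicate 2 (0.86). In S+P C5 and C7 over N+P C5 the -64532 bp peak was at 0.33 ± 0.17 and 0.16 ± 0.17, and the -57934 bp peak at 0.21 ± 0.33 and -0.34 ± 0.33. The latter was -0.78 ± 0.30 in C7 over Sensitized, and -0.92 with the replicate number as a block, where it passed the thresholds.

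**Figure D2:**
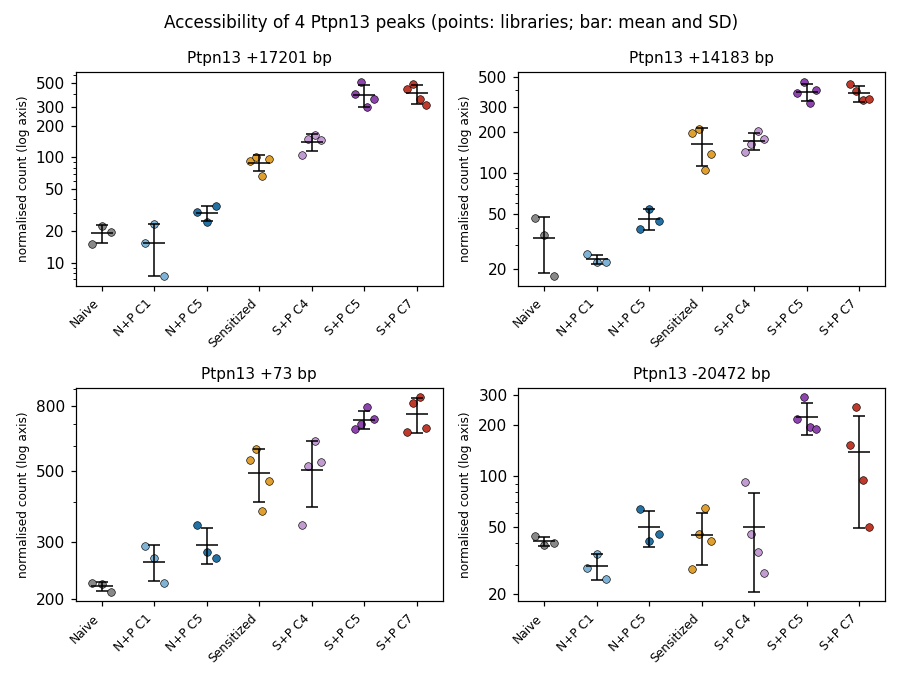
Normalised counts (log axis) of 4 Ptpn13 peaks in the 7 groups, with 1 point per library and bars for the mean and SD. The intron peaks step up from the Naive and N+P groups to Sensitized and C4 and again to S+P C5 and C7, and the -20472 bp peak rises in S+P C5 and part of C7.

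The normalisation bears on these peaks. They were weak: by mean log count over the 25 libraries, the +17201, +14183 and -20472 bp peaks stood at percentiles 1.8, 3.43 and 0.761 of all peaks, and the promoter at 48.1. A loess curve through all peaks by abundance was itself higher at that level in the S+P groups, by 2.34 on the log2 scale for S+P C5 against N+P C5 and by 1.45 for Sensitized against Naive at the abundance of the +17201 bp peak. With such loess offsets in place of 1 size factor per library, that peak was 0.76 in Sensitized over Naive, under the fold threshold, and 1.20 in C4 over C1. Its differences from C4 were 0.53 in S+P C5 and 0.54 in C7, no longer past the thresholds, and those from N+P C5 were 1.35 and 1.35. The +14183 bp peak was 1.43 and 1.61 in the same comparisons, and the promoter 1.20 and 0.95. Over N+P C5 the +14183 bp peak was 1.51 in S+P C5 and 1.43 in C7, still past the thresholds. Its other differences fell under the fold threshold, at 0.63 and 0.55 in S+P C5 and C7 over Sensitized and 0.57 and 0.49 over C4. The -20472 bp peak was 0.48 in S+P C5 over Sensitized and turned to -1.14 in S+P C5 over N+P C5 and to -0.32 in C7 over Sensitized. Without the 4 libraries that stand apart, the +17201 bp peak was 2.31 in Sensitized over Naive.

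**Figure D3:**
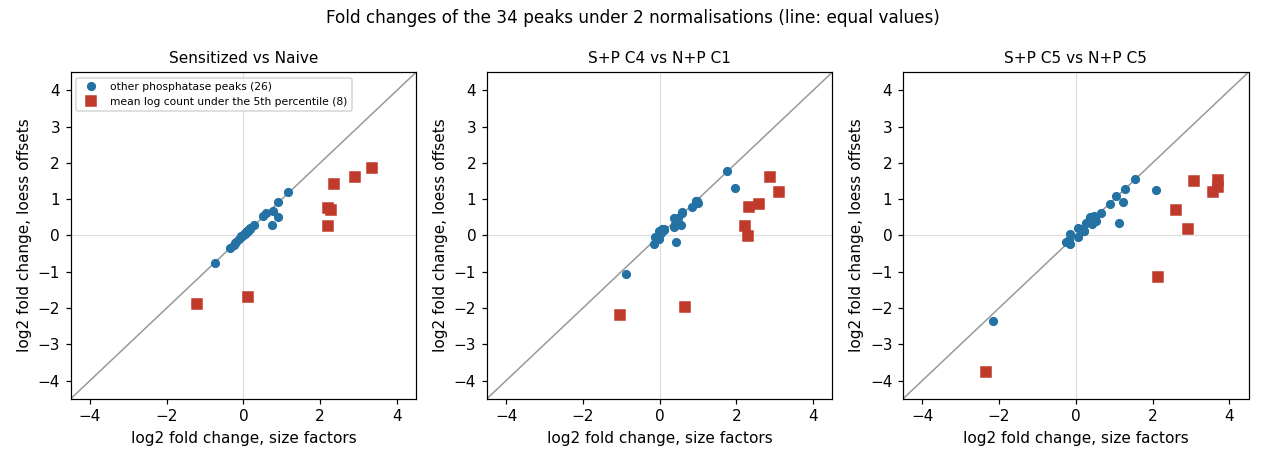
Each point is 1 of the 34 phosphatase peaks, with its log2 fold change under size factors on the x axis and under loess offsets on the y axis, in 3 comparisons, and the line marks equal values. The 26 more abundant peaks lie mostly near the line, and the 8 peaks under the 5th percentile of abundance lie below it.

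Ptpn11, which encodes SHP-2, had a single peak, in an intron 11787 bp from its start (chr5:121317151-121318267, gene on the - strand), and no peak within 1000 bp of its start. The order of its group levels was close to that of the Ptpn13 introns. Naive libraries had 13.8, 12.8 and 9.46, C1 14.4, 20.2 and 33.9 and N+P C5 44.3, 34.3 and 33.7. Sensitized libraries had 223, 139.7, 44.7 and 71.6, the first 2 far above the others, and C4 129, 113, 153 and 137. S+P C5 had 471, 585, 480.0 and 407 and C7 439.7, 541, 343 and 287, above every library of the other groups. The peak was listed in S+P C5 alone. With no test, C7 differed from Sensitized by 1.75 ± 0.34 and from C4 by 1.60 ± 0.34. In the same way Sensitized over Naive was 3.35 ± 0.43, C4 over C1 2.59 ± 0.42, and S+P C5 differed by 3.69 ± 0.39 from N+P C5, 2.02 ± 0.34 from Sensitized and 1.87 ± 0.34 from C4.

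In unsensitized mice the Ptpn11 peak was 1.67 ± 0.48 in N+P C5 over Naive, where all 3 N+P C5 libraries lay above all 3 Naive ones. DESeq2's filter on low means left it without an adjusted p there. With that filter off its adjusted p was 0.0669, and it was called. Its abundance was at percentile 2.04. With loess offsets it was 1.87 in Sensitized over Naive, 0.86 in C4 over C1 and 1.52 in S+P C5 over N+P C5. C7 over Sensitized (0.88) and C7 over C4 (0.69) then lay under the fold threshold.

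Ptpn22 had 6 peaks. The promoter and a strong intron peak at +8362 bp stayed under the fold threshold in all 13 group comparisons, and the other 4 passed it in at least 1. The +8362 bp peak had 989 ± 115 in N+P C5, against 1291 ± 217 for S+P C5 and 1349 ± 215 in C7, a difference of 0.38 ± 0.16 (adjusted p = 0.03) and 0.45 ± 0.16 (adjusted p = 0.0091). The promoter peak (309 bp from the start, chr3:103766532-103768211) had 1392 ± 118 in Naive, against 1213 ± 113 in Sensitized and 1214 ± 192 for S+P C5. Its log2 fold changes over the 13 group comparisons lay between -0.26 and 0.21. The intron peak 47998 bp from the start (chr3:103814663-103815457) had 24.8, 17.7 and 13.2 in Naive, 12.2, 28 and 26.4 in C1 and 31.2, 46.6 and 42.1 in N+P C5. It had 142, 107, 46.4 and 58.6 in Sensitized, replicates 3 and 4 again being lower, and 122, 100, 141 and 53.9 in C4. S+P C5 had 461, 612, 483 and 348 and C7 361, 409, 328 and 151, the latter with 1 library near the top of C4.

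The Ptpn22 +47998 bp peak was listed in S+P C5 alone. With no test it was 1.82 ± 0.36 in C7 over Sensitized and 1.60 ± 0.37 in C7 over C4, 2.29 ± 0.43 in Sensitized over Naive and 2.23 ± 0.44 in C4 over C1. Likewise, S+P C5 differed by 2.43 ± 0.36 from Sensitized, 3.58 ± 0.41 from N+P C5 and 2.21 ± 0.37 from C4, and C7 from S+P C5 by -0.61 ± 0.36. With loess offsets the first 2 lay under the fold threshold, at 0.77 and 0.64, and Sensitized over Naive was 0.71, C4 over C1 0.25 and S+P C5 over Sensitized 1.44. Its abundance stood at percentile 1.72.

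Of the other Ptpn22 peaks, the +13115 bp intron peak had group means of 91.1 ± 26.7 in Naive, then 71.1 ± 8.45 in N+P C5, then 151 ± 73.4 in Sensitized, 229.6 ± 62.9 in C4, 303 ± 32 in S+P C5 and 364 ± 77.2 in C7. The peak was listed in S+P groups alone. With no test, C4 over C1 was 1.98 ± 0.31 and C7 over Sensitized 1.26 ± 0.26, the latter 0.88 without the 4 libraries. S+P C5 over Sensitized was 1.00 ± 0.26 and lay under the fold threshold without Sensitized replicate 3 (0.84), without Sensitized replicate 4 (0.88), without the 4 libraries (0.62) and with loess offsets (0.70). The -7937 bp peak lies in an intron of Bcl2l15 and its means were 275 ± 36.6 in N+P C5, against 399 ± 129 in Sensitized mice and 809 ± 163 in S+P C5. It was listed in S+P C5 alone, and with no test S+P C5 differed from N+P C5 by 1.55 ± 0.23 and from Sensitized by 1.02 ± 0.21. C7 over Sensitized was 0.97 ± 0.21, under the fold threshold without the 4 libraries (0.65), without Sensitized replicate 3 (0.82) or 4 (0.89), and without C7 replicate 2 (0.88) or 3 (0.88). The -1975 bp peak passed the thresholds once, with no test, at 0.98 ± 0.15 in C7 over N+P C5.

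**Figure D4:**
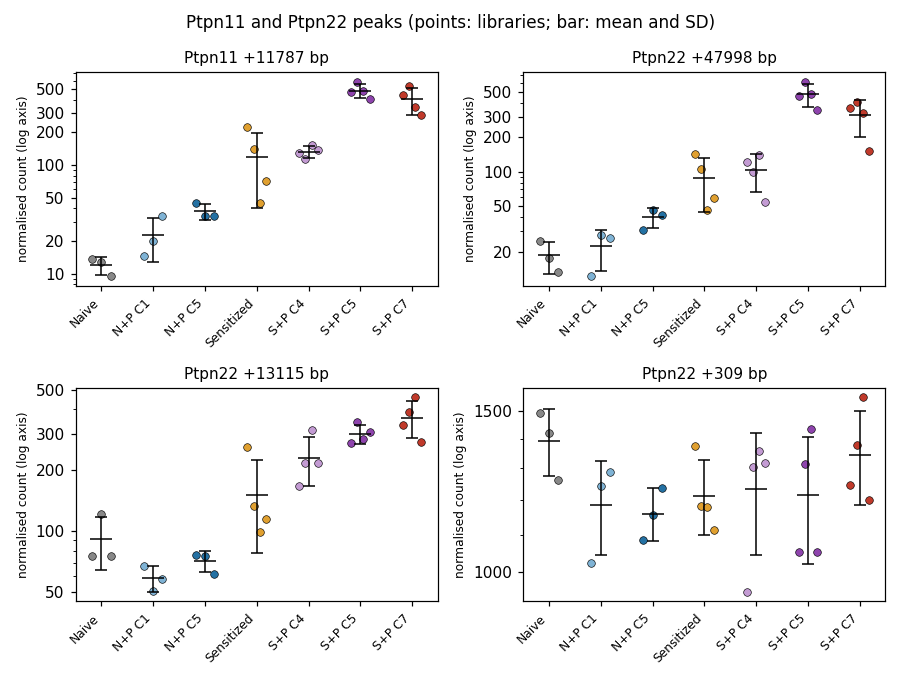
Normalised counts (log axis) of the Ptpn11 intron peak, 2 Ptpn22 intron peaks and the Ptpn22 promoter in the 7 groups, with 1 point per library and bars for the mean and SD. The intron peaks rise from the Naive groups to S+P C5 and C7, while the promoter stays between 953 and 1554 in every library.

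Ptprc, which encodes CD45, had 11 peaks, of which 4 passed the thresholds. Both peaks beyond its 3′ end were lower in the PD1+ cells of sensitized post-partum mice, and C4 over Sensitized was -0.022 ± 0.30 and -0.24 ± 0.35 at them (adjusted p = 0.977 and 0.738). They lie 276933 and 274751 bp downstream of the start (chr1:137826033-137826993 and chr1:137828447-137828943) on the far side of the gene, which ends at 137990599, and belong to Ptprc only as the nearest protein-coding start. The +276933 bp peak had 397, 396 and 479 in Naive, 460.1, 477 and 452 in C1 and 433, 504 and 504 in N+P C5. Sensitized libraries split into 152, 167, 357 and 345, and C4 ran over 436, 262, 173 and 155, its shallowest library highest. S+P C5 had 149, 106, 93.3 and 80.6 and C7 117, 61.3, 101 and 79.5, below every library of the other groups.

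Against Sensitized, the +276933 bp peak fell by 1.25 ± 0.30 (SE) in S+P C5 (adjusted p = 0.000652) and by 1.51 ± 0.31 in C7 (adjusted p = 9.76e-06). Both calls ended without the 4 libraries, at -0.55 (adjusted p = 0.142) and -0.81 (adjusted p = 0.00872). Against C4 it fell by 1.23 ± 0.30 in S+P C5 (adjusted p = 0.00153), a call that ended without C4 replicate 1 (-0.86) and without the 4 libraries (-0.85), and by 1.48 ± 0.31 in C7 (adjusted p = 5.58e-05). It was listed in unsensitized groups alone, and with no test it was -2.16 ± 0.32 in S+P C5 and -2.42 ± 0.33 in C7 over N+P C5. Sensitized over Naive was -0.73 ± 0.32, against -1.32 without the 4 libraries and -1.01 with the replicate number as a block, both past the fold threshold.

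The +274751 bp peak had 363 ± 35.4 in Naive, 272 ± 22.5 in C1, 266 ± 16.5 in N+P C5, 156 ± 72.2 in Sensitized, 134 ± 53.8 in C4, 51.5 ± 24.4 in S+P C5 and 44.2 ± 20 in C7. It fell by 1.57 ± 0.35 in S+P C5 over Sensitized (adjusted p = 0.000235), and without the 4 libraries that was -0.87 (adjusted p = 0.122) and not called. It also fell by 1.82 ± 0.36 in C7 over Sensitized (adjusted p = 6e-06). Against C4 it fell by 1.33 ± 0.36 in S+P C5 and by 1.58 ± 0.37 in C7 (adjusted p = 0.00455 and 0.000378). It was listed in Naive alone, and with no test Sensitized over Naive was -1.21 ± 0.37 and S+P C5 over N+P C5 -2.34 ± 0.38. C4 over C1 (-1.04 ± 0.38) lay narrowly past the fold threshold, and under it without C4 replicate 3 (-0.88) or 4 (-0.88). With loess offsets S+P C5 over N+P C5 was -3.76, a greater fall than with size factors.

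In contrast, a weak peak 10398 bp upstream of Ptprc (chr1:138113666-138114023) was higher in sensitized mice. Naive libraries had 46.8, 30.5 and 21.5 and C1 22.1, 24.7 and 18.8, while Sensitized had 259, 200.1, 51.6 and 85.2 and S+P C5 155, 199, 258 and 149. It was listed in S+P C5 alone, and with no test it was 2.20 ± 0.47 in Sensitized over Naive and 2.30 ± 0.50 in C4 over C1, and S+P C5 differed by 2.93 ± 0.49 from N+P C5 and 0.35 ± 0.42 from Sensitized. With loess offsets the first 2 were 0.26 and -0.0097, and S+P C5 over N+P C5 was 0.18. The peak at -12593 bp passed the thresholds once, with no test, at 1.00 ± 0.23 in C4 over C1, and is not among the peaks the naming rule kept. The Ptprc promoter had 372 ± 23.3 in Naive and 287 ± 42.2 in S+P C5, with fold changes between -0.36 and 0.049. The 5 intron peaks were not called in any comparison.

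Ptprj, which encodes CD148, had an intron peak 15909 bp from its start (chr2:90394849-90395315) and a peak 3199 bp upstream (chr2:90413950-90414430). The intron peak had 45.5, 34.4 and 30.9 in Naive, 22.1, 24.7 and 22.6 in C1 and 50.3, 50.7 and 45.7 in N+P C5. Sensitized libraries had 376, 472, 108 and 145, the first 2 above every library of S+P C5 (243, 339.8, 357 and 255), and C4 had 44.2, 103, 185 and 127. It was listed in Sensitized and S+P C5 alone. Between the backgrounds, with no test, it was 2.91 ± 0.42 in Sensitized over Naive and 2.61 ± 0.41 in S+P C5 over N+P C5. S+P C5 over Sensitized was 0.12 ± 0.37 (adjusted p = 0.833), while S+P C5 over C4 was called at 1.35 ± 0.37 (adjusted p = 0.00575). That call ended with loess offsets (0.62, adjusted p = 0.207), under which Sensitized over Naive was 1.62 and S+P C5 over N+P C5 0.69. C7 over C4 was called at 0.92 ± 0.38 (adjusted p = 0.0714) and lost the call in edgeR, with loess offsets (0.14), without the 4 libraries (0.69), and without any 1 of C4 replicates 1 (0.69) and 2 (0.87) and C7 replicates 1 (adjusted p = 0.101), 2 (0.87) and 3 (0.85).

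C4 over Sensitized at the Ptprj intron peak was -1.23 ± 0.37 (adjusted p = 0.037), the only phosphatase call in that comparison. It was not called with the replicate number as a block (-1.14, adjusted p = 0.459), though these groups are of different mice that share only the number. The call also ended with only the 2 groups in the fit (adjusted p = 0.355), without Sensitized replicate 2 (-0.84) or without C4 replicate 4 (adjusted p = 0.109). The -3199 bp peak had 117 ± 30.6 in N+P C5, against 208 ± 36.7 in Sensitized mice and 255 ± 30.4 in S+P C5, and was listed in S+P C5 alone. With no test, S+P C5 over N+P C5 was 1.13 ± 0.21, and 0.33 with loess offsets.

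**Figure D5:**
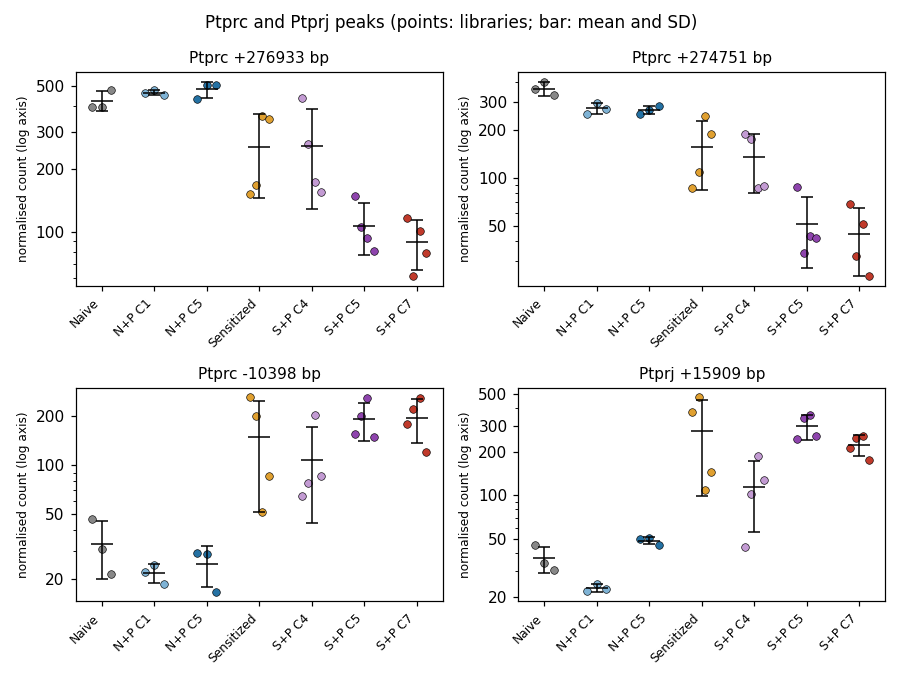
Normalised counts (log axis) of 3 Ptprc peaks and the Ptprj intron peak in the 7 groups, with 1 point per library and bars for the mean and SD. The peaks beyond the 3′ end of Ptprc fall to their lowest in S+P C5 and C7, and the -10398 bp and Ptprj peaks rise from the Naive groups, with Sensitized libraries widely spread.

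Ptpn6, which encodes SHP-1, had an intron peak 15270 bp from its start (chr6:124699960-124701180), nearer to the start of Phb2, that passed the thresholds 3 times but is not among the peaks the naming rule kept. Without a test, as it was listed in sensitized mice alone, it was 1.75 ± 0.39 in C4 over C1, 1.05 ± 0.39 in S+P C5 over N+P C5 and 1.50 ± 0.39 in C7 over N+P C5. Its Sensitized libraries split into 1080.4, 996, 404 and 435, and replicate 1 was the lowest of all 3 S+P subsets, at 412, 445 and 492. The peak nearest the Ptpn6 start, 5783 bp inside the gene at an internal coding transcript start, had 295 ± 6.07 in Naive and 251 ± 34.1 in S+P C5 and was not called. Ptpn1 had a peak 6818 bp upstream (chr2:167766717-167767536) listed in S+P C5 and C7 alone. With no test it was 1.13 ± 0.18 in C7 over N+P C5, between means of 319 ± 34.2 in N+P C5 and 697 ± 56.4 in C7. C4 over C1 was 0.94 ± 0.18, which fell under the fold threshold without C1 replicate 2 (0.84), C1 replicate 3 (0.82) or C4 replicate 3 (0.89).

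The promoters of Ptpn1 and Ptpn2 were listed in all 7 groups. That of Ptpn7 was listed in all but C4, where its mean was 712 ± 73.3. The Ptpn1 promoter had 569 ± 55.1 in Naive and 752 ± 46 in C7, and its fold changes lay between -0.24 and 0.57. The Ptpn7 promoter rose from 671 ± 35.8 in Sensitized to 875 ± 63.7 in C7, by 0.38 ± 0.076 (adjusted p = 5.36e-06), under the fold threshold. The Ptpn2 promoter was the strongest of the 34 peaks by mean log count, at 1507 ± 57.4 in Naive and 1438 ± 94.1 in S+P C5, and its fold changes lay between -0.14 and 0.07.

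Comparisons between sensitized and unsensitized groups come first. Every phosphatase peak past the thresholds in them was without a test, so their counts are descriptions. Sensitized over Naive had 8 phosphatase peaks past them, 7 opening and 1 closing, where 8.62% of all peaks were. The median log2 fold change was 0.12 over the 34 peaks and -0.014 over all peaks. Without the 4 libraries that stand apart 12 passed, where the share of all peaks was 15.2%. C4 over C1, which sets the PD1- cells of both backgrounds against each other, had 13 (12 opening, 12.6% of all peaks), with a median of 0.53. S+P C5 over N+P C5 had 15 and C7 over N+P C5 had 17, where 17.2% and 22.0% of all peaks passed. Of these, 5 in each were peaks of Ptpn13. The rest, 10 of 27 in the first (8 opening) and 12 in the second (10 opening), were likewise listed on 1 background alone.

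The peaks that have a test between the backgrounds gave no call in DESeq2 or edgeR. These were 13 phosphatase peaks in Sensitized over Naive (none with an unadjusted p under 0.05) and in C4 over C1 (5 with one), and 11 in S+P C5 and in C7 over N+P C5 (6 with one in either). Among all peaks with a test by the same listing rule, 0.598%, 2.11%, 4.97% and 9.56% were called in that order.

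The effect of pregnancy on sensitized cells was asked against Sensitized mice, whose labels name no PD1 or CD73 subset. Pregnancy and the sort on PD1 therefore cannot be told apart in these comparisons. In S+P C5, 9 peaks passed the thresholds (7 opening, 2 closing, 6.74% of all peaks) and in C7 another count of 9 (7 opening, 2 closing, 11.9%), with medians of 0.14 and 0.19 over the 34 peaks. Without the 4 libraries the first fell to 5 and the second to 7, and the shares of all peaks to 3.38% and 7.03%. With loess offsets some of the opening peaks fell under the fold threshold, and the rest of both sets stayed past it. In S+P C5 these were Ptpn22 +13115 bp (0.70), Ptpn13 -20472 bp (0.48) and Ptpn13 +14183 bp (0.63). In C7 they were Ptpn22 +47998 bp (0.77), Ptpn13 -20472 bp (-0.32), Ptpn13 +14183 bp (0.55) and Ptpn11 +11787 bp (0.88). Of the 17 peaks with a test, 2 were called in S+P C5 and 2 in C7, in both the 2 remote Ptprc peaks closing, where 486 (4.43%) and 1100 of all 10962 peaks with a test were called. Without the 4 libraries the 2 calls in S+P C5 and the +276933 bp call in C7 ended. In C4 over Sensitized 1 peak passed, which closed (0.858% of all peaks), and it was called among 20 with a test (0.246% of all such peaks). These comparisons share the Sensitized libraries. Within the same S+P mice, 9 peaks passed the thresholds in S+P C5 over C4 (5.12% of all peaks), of which 3 were among the 17 with a test (2.74% of all peaks with a test were called). In C7 over C4 8 passed (7.73% of all peaks), of which 3 were among the 17 with a test (against 6.56%). With loess offsets 4 phosphatase peaks passed in S+P C5 over C4 and 2 in C7 over C4. C7 over S+P C5 had none (2.38% of all peaks), and edgeR called none. The DESeq2 Wald test gave an unadjusted p under 0.05 for 3 of the 17 peaks with a test there. As a description over all 34 peaks the count was 4 (11.8%, against 18.4% of all peaks).

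Among mice without sensitization, no phosphatase peak was called by DESeq2 or edgeR as set out above. The shares of all tested peaks called were 0.0205% in C1 over Naive, 0.0262% in N+P C5 over Naive and 0.0% in N+P C5 over C1. Among peaks with a test, the DESeq2 Wald test gave an unadjusted p under 0.05 for 4 of 33 in C1 over Naive. It did so for 5 of 26 in N+P C5 over Naive and for 1 of 27 in N+P C5 over C1. Over all 34 peaks, as a description that includes peaks without a test, the counts were 4 (11.8%, against 19.0% of all peaks), 6 (17.6%, against 17.5%) and 3 (8.82%, against 2.28%). By edgeR they were 7, 7 and 3. The Ptpn11 peak in N+P C5 over Naive was called under other settings, with DESeq2's filter off, with only the 2 groups in the fit, with the replicate block (1.64, adjusted p = 0.0699), and without Naive replicate 3 (1.50), Sensitized replicate 1 (1.68) or the 4 libraries. Ptprc +30259 bp in C1 over Naive was called without Naive replicate 3 (-0.96). DESeq2 gave an adjusted p to 10 and 6 of the 34 peaks in the first 2 and to all 34 in the third. At the Ptpn13 promoter N+P C5 over Naive was 0.44 ± 0.18, and all 3 N+P C5 libraries were above the 3 Naive ones.

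Whether pregnancy acted differently in sensitized and unsensitized mice was asked in C5 by the interaction, S+P C5 over Sensitized less N+P C5 over Naive. The Naive and Sensitized labels name no sorted subset, so pregnancy and the sort cannot be told apart here either. The thresholds were passed at 6 phosphatase peaks (5 positive, 5.97% of all peaks). None of the 6 has a test, because Ptpn13 was chosen on these libraries or the peak was listed on 1 background alone, and each fell short of the thresholds under some setting. The values were 2.01 ± 0.62 at Ptpn13 -20472 bp, 1.51 ± 0.40 at Ptpn13 +17201 bp, 1.35 ± 0.42 at Ptpn22 +13115 bp, 0.96 ± 0.33 at Ptpn22 -7937 bp and 1.29 ± 0.59 at Ptpn22 +47998 bp. With loess offsets the Ptpn13 values were 0.55 and 0.58, and Ptpn22 +47998 bp was 0.47, all under the fold threshold. Ptpn22 +47998 bp also fell short in edgeR, without the 4 libraries and without any 1 of 15 single libraries. Ptpn22 -7937 bp fell short without the 4 libraries and without any 1 of 5, and Ptpn22 +13115 bp without 1, Naive replicate 2. At Ptprc +276933 bp the value was -1.43 ± 0.46, which fell under the fold threshold without the 4 libraries (-0.83). The Ptpn11 peak had 0.35 ± 0.58. Of the 11 peaks with a test, DESeq2 and edgeR called none and 1 had an unadjusted p under 0.05, where 2.92% of all peaks with a test were called. Without the 4 libraries 3 of the 34 peaks passed the thresholds, and with loess offsets 4.

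The peaks most like the Ptpn13 +17201 bp peak were taken as the 5 non-phosphatase peaks with the highest Pearson r over log2(normalised count + 1) in the 25 libraries, among peaks with a mean normalised count of at least 50. The points share library, depth and group, so r is a description. They were a peak 48307 bp from Nefl (r = 0.98), an intron of Aopep whose nearest start is Fancc (r = 0.98), and peaks 31732 bp from Ccr1 (r = 0.98), 23545 bp from Ifnar1 (r = 0.98) and 1375 bp from Neil2 (r = 0.97). Among the phosphatase peaks r was 0.97 for Ptpn13 +14183 bp, 0.95 for its promoter, 0.95 for Ptpn11, 0.94 and 0.93 for the Ptpn22 introns at +47998 and +13115 bp, and -0.89 and -0.90 for the 2 remote Ptprc peaks.

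The other genes of the pathway were counted from lists. Of 29 further classical tyrosine phosphatases, 11 had peaks, 22 in all. In Sensitized over Naive 4 of the 22 opened and none closed, in S+P C5 over Sensitized 1 opened and 1 closed, and in S+P C5 over N+P C5 5 opened and 2 closed. The called shares of the 22 were 18.2%, 9.09% and 31.8%, where 8.62%, 6.74% and 17.2% of all peaks were called. Their median log2 fold changes were -0.04, -0.08 and -0.24, and those of all peaks -0.014, -0.0063 and 0.0046. The calls lay at Ptpre (4 of 6 peaks called in at least 1 comparison), Ptpn12 (2 of 3), Ptprk (1 of 3) and Ptprn2 (its 1 peak), which were named after their values were seen. Of 17 kinases and adaptors on which these phosphatases act, 16 had peaks, 62 in all. In Sensitized over Naive 5 opened and 2 closed, in S+P C5 over Sensitized 6 opened and 2 closed, and in S+P C5 over N+P C5 7 opened and 5 closed, with medians of -0.10, 0.082 and 0.036. The called shares of the 62 were 11.3%, 12.9% and 19.4%, beside the same shares and medians of all peaks. The listing rule above was not applied to these lists, so their counts are descriptions.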

How the data were processed

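ATAC-seq was done on sorted CD8+ T_FGS cells in 25 libraries of 7 groups. Per the labels and the study's methods, the authors trimmed reads with cutadapt 3.4, aligned them to GRCm39 with Bowtie2 2.2.9, removed duplicates with Picard 2.21.8, called peaks in each sample with Genrich 0.6.1 in its ATAC mode, took reproducible peaks per group with ChIP-R and merged them with bedtools 2.27.1. The authors deposited raw counts of reads in 13527 merged peaks, together with group peak lists that carry a score and a q-value for each peak, of which only the presence of a peak was used. All count columns matched a sample, leaving 0 unmatched. Total counts ran from 2430890 to 25419715, and intervals and spreads reflect these libraries only.

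Peaks were annotated with GENCODE M39, with promoters within 1000 bp of a protein-coding transcript start. Counts were fitted in DESeq2 1.42.0 (R 4.3.3) with median-of-ratios size factors in 1 model of all 7 groups, with fold changes not shrunken. P-values were adjusted by the Benjamini-Hochberg method over all peaks, and peaks were called below 0.1 where the log2 fold change also lay beyond 0.9 in size. Printed levels are counts divided by the size factors. edgeR 4.0.16 with limma 3.58.1, loess offsets (span 0.3), the replicate number as a block, other filters and each library left out were alternatives. The block stands for the mouse only between subsets of the N+P mice or of the S+P mice. The fitting steps were tested on simulated data.

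No test is given where Ptpn13 was chosen on the libraries compared or where the group lists that held a peak fix 1 side of the comparison. The members and the gene lists were chosen with earlier results of these data known. Named were the peak nearest the start of each gene and the 16 peaks past the thresholds with the smallest adjusted p, at most 5 per gene, which gave 22 peaks. The nearest-start rule and the threshold rule overlap, and 2 peaks past the thresholds (Ptpn6 +15270 bp and Ptprc -12593 bp) fell outside them and were named after their values were seen. No pair of libraries agreed within counting noise (lowest chi-square per degree of freedom 2.81).

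Sorted subsets with 1 replicate number came from the same mouse, by the column names and the methods, and deviations from the group means were correlated within mice. Pearson r per mouse was 0.400, 0.108 and 0.292 for C1 and N+P C5, 0.572, 0.103, 0.313 and 0.510 for C4 and S+P C5, 0.612, 0.0639, 0.385 and 0.666 for C4 and C7, and 0.771, 0.575, 0.522 and 0.630 for S+P C5 and C7. Between other groups a shared number does not mark a shared mouse.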

Additional observations from a re-analysis of the deposited data

Results flagged for a closer look

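In 88 groups of 4 libraries tested, 3 held a library far from the others, where chance gives about 1 in 20. They were S+P C5 replicate 1 at Ptprc +274751 bp (87.6), C4 replicate 3 at Ptprc -10398 bp (200.9) and C4 replicate 1 at the Ptpn22 promoter (953), all in normalised counts.

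The difference between the pregnancy effects in C5 of sensitized and unsensitized mice passed the thresholds at 6 peaks. On the log2 scale it was -1.43 ± 0.46 (SE) at Ptprc +276933 bp, 0.96 ± 0.33 at Ptpn22 -7937 bp, 1.35 ± 0.42 at Ptpn22 +13115 bp and 1.29 ± 0.59 at Ptpn22 +47998 bp. It was 2.01 ± 0.62 at Ptpn13 -20472 bp and 1.51 ± 0.40 at Ptpn13 +17201 bp. No test is given for these 6, because of how the gene or the peaks were chosen, so the values are descriptions. With loess offsets Ptpn13 -20472 bp was 0.55, Ptpn13 +17201 bp 0.58 and Ptpn22 +47998 bp 0.47, under the fold threshold. Ptpn22 +47998 bp also fell short in edgeR and without any 1 of 15 single libraries, Ptpn22 -7937 bp without any 1 of 5, Ptpn22 +13115 bp without Naive replicate 2, and Ptprc +276933 bp without the 4 libraries that stand apart (-0.83).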

How the results depend on the processing

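Of 91 values of the named peaks past the thresholds, with or without a test, 38 stayed past them under all 35 settings, 53 lost it in at least 1 and 4 were reversed, all with loess offsets: Ptpn13 -20472 bp at -0.32 in C7 over Sensitized, -1.14 in S+P C5 over N+P C5 and -1.93 in C7 over N+P C5, and Ptprc -10398 bp at -0.0097 in C4 over C1. Under loess offsets 38 of the 91 values were no longer past the thresholds, 33 of them among the 60 values of the 8 peaks under the 5th percentile of abundance. Counts that follow are of phosphatase peaks past the thresholds. Loess offsets gave 4 phosphatase peaks in S+P C5 over C4 and 2 in C7 over C4. With no fold threshold the counts were 14 in Sensitized over Naive, 4, 15 and 18 in C4, S+P C5 and C7 over Sensitized, 21 in C4 over C1, 26 in S+P C5 over N+P C5, 14 and 15 for S+P C5 and C7 over C4, and 2 in C7 over S+P C5. With the 20 gene body peaks alone they were 5 in S+P C5 and in C7 over Sensitized, 8 in C4 over C1 and also in both S+P C5 and C7 over N+P C5, 5 in S+P C5 and in C7 over C4, and 3 in the interaction. Without the 4 libraries that stand apart they were 1 in C1 over Naive, 1 in N+P C5 over Naive, 5 in S+P C5 over Sensitized and 3 in the interaction. With DESeq2's filter off or only the compared groups fitted, N+P C5 over Naive called 1, and with only the compared groups C4 over Sensitized called 0.

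Leaving out 1 library at a time gave 8 to 11 peaks past the thresholds, with or without a test, in Sensitized over Naive. The counts were 0 to 1 in C1 over Naive (1 without Naive replicate 3), 0 to 1 in N+P C5 over Naive (1 without Naive replicate 3 or Sensitized replicate 1) and 0 in N+P C5 over C1. They were 0 to 2 in C4 over Sensitized (2 without Sensitized replicate 1, 0 without Sensitized replicate 2 or C4 replicate 4), and 7 to 9 and 8 to 10 in S+P C5 and C7 over Sensitized. They were 9 to 14 in C4 over C1, 15 to 16 and 16 to 17 for S+P C5 and C7 over N+P C5, and 8 to 10 and 7 to 10 for S+P C5 and C7 over C4. They were 0 to 1 in C7 over S+P C5 (1 without C7 replicate 2) and 4 to 8 in the interaction.

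With the replicate number as a block, N+P C5 over Naive called 1 phosphatase peak and C4 over Sensitized 0. This fit moved the count of no other group comparison by over 1.5 times, and it was not run for the interaction. Groups of different mice share only a number. Few reads at the weakest peaks of unsensitized groups limit the precision of their fold changes.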
